A study of Arabidopsis thaliana with 6 samples.

Results

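The comparison described here sets Arabidopsis thaliana rosettes sprayed with gibberellin (GA) against rosettes given paclobutrazol (PBZ), the pair of treatments with the widest gap in gibberellin supply in the series. Its members are the 4 arrays that the sample titles name GA or PBZ, 2 per treatment, out of 6 arrays in all. The other 2 arrays are untreated controls and serve here to show where an untreated rosette lay. GA plants received GA3, an active gibberellin, as a spray of 1 mL at 50 µM on every second day. PBZ plants received 10 mL of paclobutrazol at 50 mg/L in their water at day 14, or 0.5 mg per pot. Control plants had no treatment in the labels. Neither PBZ plants nor controls are described as sprayed, so spraying and gibberellin cannot be told apart. Plants of all 3 groups were of the Col-0 accession, carried the ribosomal protein RPL18B with an HF (FLAG-type) tag under a constitutive viral promoter, and grew in soil with 16 h of light. The titles give harvest at day 27, the source names at day 25. The labels call the replicates biological and say no more of their origin, so the p-values measure the spread between these samples. The molecule field gives total RNA, while the protocol describes both total RNA and RNA pulled down with tagged ribosomes.

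Gibberellins are growth hormones that promote stem and leaf growth, seed germination and flowering. An active gibberellin binds a GID1 receptor, and the complex then seizes a DELLA protein, a repressor of growth, which the F-box protein SLY1 marks for destruction. Paclobutrazol blocks ent-kaurene oxidase, an early enzyme of gibberellin synthesis, and leaves plants dwarfed and dark green. Other cytochrome P450 enzymes can also be inhibited by triazoles of this kind.

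Each array gave 1 intensity for each of 22746 probe sets, after 64 control probe sets were left out. Median intensities were 32.5 and 32.7 in GA and 33.8 and 33.9 in PBZ, against 32.4 and 33.2 in the controls. Pearson correlations across probe sets were 0.9884 between the GA arrays, 0.9814 between the PBZ arrays and 0.9667 to 0.9723 between GA and PBZ arrays. RCA, the Rubisco activase of leaf mesophyll, was bright on all 6 arrays, and its intensities were 4237.1 and 4178.4 in GA and 4237.3 and 4195.6 in PBZ. A root peroxidase (AT4G33420) and a pollen gene (AT5G45880) reached at most 14.1 and 4.4 on any array, and no flower or vascular marker of the lists had a named probe set. The ratio of 3′ to 5′ signal for GAPDH, a sign of RNA integrity, was 3.36 and 2.71 in GA and 2.57 and 1.54 in PBZ, against 2.66 and 2.71 in the controls. For actin it was 18.8 and 12.3 in GA and 12.7 and 11.5 in PBZ, and for ubiquitin 2.14 and 2.11 in GA and 2.21 and 1.94 in PBZ. The groups overlapped for actin and ubiquitin but not for GAPDH, and the part of RNA integrity in the results was not tested.

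Higher in GA than in PBZ rosettes were 4 of 18 measured expansins, 2 of 9 xyloglucan endotransglucosylases, 2 of 11 RALF-like peptides and 3 of 4 genes of touch and wounding. Lower in GA were the gibberellin receptors GID1A and GID1B, 5 of 5 anthocyanin enzymes, 3 of 4 jasmonate-responsive genes and 5 of 6 genes of the endoplasmic reticulum body. A listed gene counts as measured if the annotation gave it a named probe set, and most members of several lists were not measured. The lists held 16 genes of touch and wounding, 20 of anthocyanin and flavonol synthesis, 22 of jasmonate response and 14 of the endoplasmic reticulum body. In all, 675 probe sets passed at an adjusted p under 0.05 (limma with Benjamini-Hochberg adjustment over all probe sets), which is 2.97% of those tested. Of these, 445 (1.96%) were higher in GA and 230 (1.01%) were lower. Arrays of the groups did not overlap for 4354 probe sets higher in GA (19.1%) and 6441 lower (28.3%). The difference is given as a log2 fold change of GA minus PBZ on the log2(intensity + 10) scale, which understates the change of dim genes. The median over all probe sets was -0.0468 on this scale, and the median standard error (SE) was 0.16. In bulk rosettes, fewer cells of a type and less RNA per cell cannot be told apart.

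Among the 445 rises, the median log2 fold change was 1.22, 314 reached 1 and 53 reached 2. Among the 230 falls, the median was -1.11, 136 reached a fall of 1 and 31 reached a fall of 2. Dim probe sets were called less often: with probe sets ranked by brightness and divided into 5 equal bins, 0.681% passed in the dimmest bin, against 4.26% in the brightest. The lower member of a pair was under the pseudocount of 10 in part of the calls. The PBZ mean was under 10 for 63 of the 445 rises, and the GA mean was under 10 for 73 of the 230 falls. Of all probe sets, 28.1% and 26.8% were under 10 on the PBZ arrays and 29.4% on each GA array. Of 117 called genes followed through the alternatives, 98 did not pass with a pseudocount of 1 and 93 did not pass with a floor of 10. With 2 arrays a group the calls depended on every array. Without GA replicate 1 or 2 no probe set passed (limma; 2781 and 2990 had an unadjusted p under 0.05), and without PBZ replicate 1 or 2, 37 and 24 passed.

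**Figure D1:**
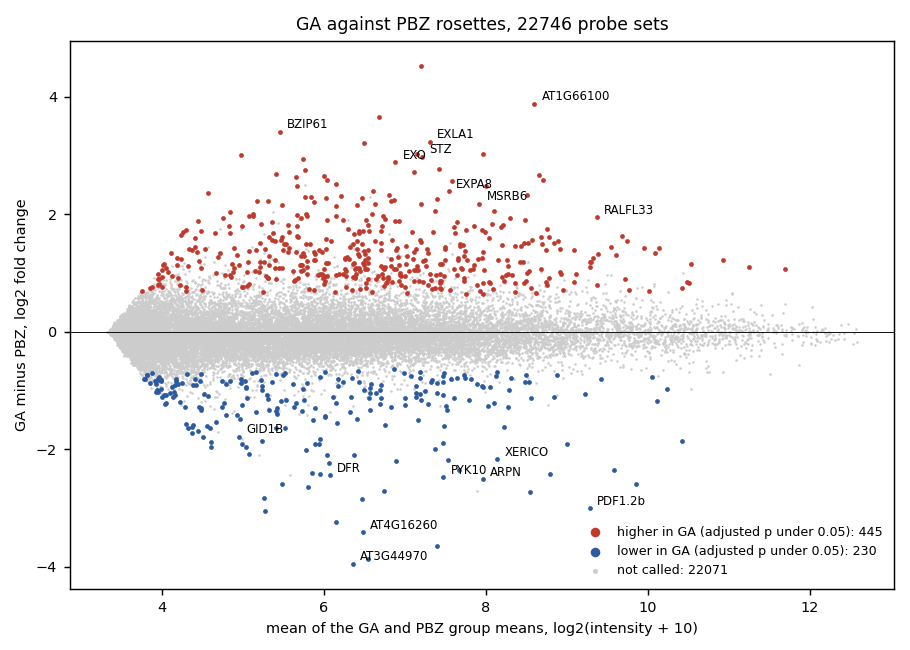
Log2 fold change of GA minus PBZ (vertical axis) against the mean of both group means, log2(intensity + 10) (horizontal axis), with 1 point per probe set. The 445 called rises (red) lie above 0 and the 230 called falls (blue) below it, and 22071 probe sets were not called (grey).

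Of the 3 gibberellin receptors, all of them measured, 2 fell. GID1B (AT3G63010), one of the receptors for active gibberellin, had intensities of 4.4 and 9.2 in GA and 42.4 and 52.9 in PBZ, with 10.6 and 16.4 in the controls. Both GA arrays were dimmer than every other array, and both PBZ arrays were brighter. Its log2 fold change was -1.79 (SE 0.21, limma adjusted p = 0.0156). GID1A (AT3G05120), the receptor's close relative, had 84.6 and 91.7 in GA and 200.7 and 182.4 in PBZ, with 115.0 and 104.7 in the controls. It fell by 1.04 on the log2 scale (SE 0.13, limma adjusted p = 0.0182), again with the control arrays between the treatments.

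The remaining receptor, GID1C, did not pass, with 17.5 and 27.5 in GA and 38.8 and 25.6 in PBZ, arrays that overlapped. SLY1, the F-box protein that targets DELLA proteins, had 90.8 and 87.1 in GA and 145.3 and 232.0 in PBZ, and did not pass either (log2 fold change -0.97, limma adjusted p = 0.0802). Its PBZ arrays stood well apart from each other. Its relative SLY2 and SPY, an enzyme that modifies DELLA proteins, had log2 fold changes of -0.22 and -0.32 and did not pass. Of 12 listed genes of gibberellin perception 6 were measured. Over these 6, 0 rose and 2 fell, and the median log2 fold change was -0.67 beside -0.0468 over all probe sets. The 14 listed genes of gibberellin synthesis and the 11 of its inactivation had no named probe set of their own in the annotation used here. GASA genes encode small cysteine-rich peptides whose family is known for gibberellin regulation. Only 6 of 14 listed GASA genes had a named probe set, so most of the list was not seen. None of these 6 passed (limma, 2 with an unadjusted p under 0.05), and their log2 fold changes ran from -0.60 to 0.45.

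XERICO (AT2G04240), a RING-finger protein that promotes abscisic acid accumulation and is known as a DELLA target, had 100.7 and 148.8 in GA and 516.8 and 670.2 in PBZ, with 244.1 and 217.5 in the controls. The groups stood in order, with GA lowest and PBZ highest. On the log2 scale the fold change was -2.17 (SE 0.22, limma adjusted p = 0.0119). GIS (AT3G58070), a zinc finger protein of trichome initiation known to act downstream of gibberellin, had 53.9 and 53.2 in GA and 112.7 and 147.2 in PBZ. Its log2 fold change was -1.13 (SE 0.16, limma adjusted p = 0.0243).

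Expansins, proteins known for loosening plant cell walls, held some of the highest rises. EXLA1 (AT3G45970), an expansin-like protein, had 580.0 and 386.6 in GA and 44.1 and 39.3 in PBZ, with 89.6 and 96.4 in the controls. The GA arrays were far above all others, while the controls lay near PBZ. Its log2 fold change was 3.23 (SE 0.20, limma adjusted p = 0.00501), a 9.37-fold difference. EXPA8 (AT2G40610), an alpha-expansin, had 391.7 and 442.3 in GA and 57.1 and 88.9 in PBZ, with 699.2 and 638.0 in the controls. Here both control arrays were brighter than both GA arrays, so PBZ was the group that stood apart. Its fold change on the log2 scale was 2.39 (SE 0.21, limma adjusted p = 0.00917).

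EXLA2, a relative of EXLA1, and EXPB1, a beta-expansin, rose as well, with log2 fold changes of 1.96 and 1.01. Of the 18 measured expansins 4 rose and 0 fell, and the other 14 did not pass. The median log2 fold change of the 18 was -0.05. EXPB3 had 116.0 and 121.6 in GA and 197.0 and 238.4 in PBZ, the opposite direction, just short of the threshold (log2 fold change -0.82, limma adjusted p = 0.0532). EXPA16 had 32.8 and 28.3 in GA and 88.4 and 56.0 in PBZ (limma adjusted p = 0.0831).

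Xyloglucan endotransglucosylases, which cut and rejoin the xyloglucan tethers of the wall, had 2 rises among 9 measured members. XTH16 (AT3G23730) had 104.4 and 119.2 in GA and 38.0 and 45.1 in PBZ, with 69.8 and 74.1 in the controls. The controls lay between the treatments, and the log2 fold change was 1.24 (SE 0.14, limma adjusted p = 0.0139). XTH33 rose by 1.15 on the log2 scale. XTH18 had the same log2 fold change of 1.15 and did not pass (limma adjusted p = 0.0657), and XTH32 had -0.85 (adjusted p = 0.0631).

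Other enzymes of the wall also rose. PME61, a pectin methylesterase, had a log2 fold change of 1.29, and ATPMEPCRB, of the same enzyme class, one of 1.71. CSLA03, of a family that makes mannan backbones, and CSLC04, which makes the glucan backbone of xyloglucan, rose by 1.35 and 0.66 on the log2 scale. The call of CSLC04 (limma adjusted p = 0.0495) was lost with a robust variance prior and with a replicate block. CSLA03 and CSLC04 were 2 of 7 measured cellulose synthase-like genes, and the other 5 did not pass. TBL37, of a family of polysaccharide acetyltransferases, rose by 1.22. GH9B13, an endoglucanase, went the other way with a log2 fold change of -1.28. EXO (AT4G08950), the extracellular protein EXORDIUM known as a brassinosteroid-induced growth gene, had 405.3 and 236.7 in GA and 37.0 and 30.1 in PBZ, with 59.0 and 87.7 in the controls. The GA arrays were the brightest by a wide margin, and the log2 fold change was 2.88 (SE 0.29, limma adjusted p = 0.0119).

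RALF-like genes encode small secreted peptides sensed at the wall by receptor kinases of the FERONIA family. RALFL33 (AT4G15800) had 1447.3 and 1147.0 in GA and 291.1 and 367.0 in PBZ, with 638.8 and 827.4 in the controls, and the 3 groups did not overlap. Its log2 fold change was 1.95 (SE 0.20, limma adjusted p = 0.0128), and that of RALFL22 was 1.68. Of 11 measured RALF-like genes these 2 passed, and the median log2 fold change was 0.42. ACT11, an actin, had 74.5 and 73.3 in GA and 21.3 and 28.2 in PBZ (log2 fold change 1.28). The 7 measured tubulins had a median of 0.20, and none passed (limma; 1 had an unadjusted p under 0.05). TCP15, a class I TCP factor of cell proliferation and elongation, rose by 0.97 on the log2 scale.

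**Figure D2:**
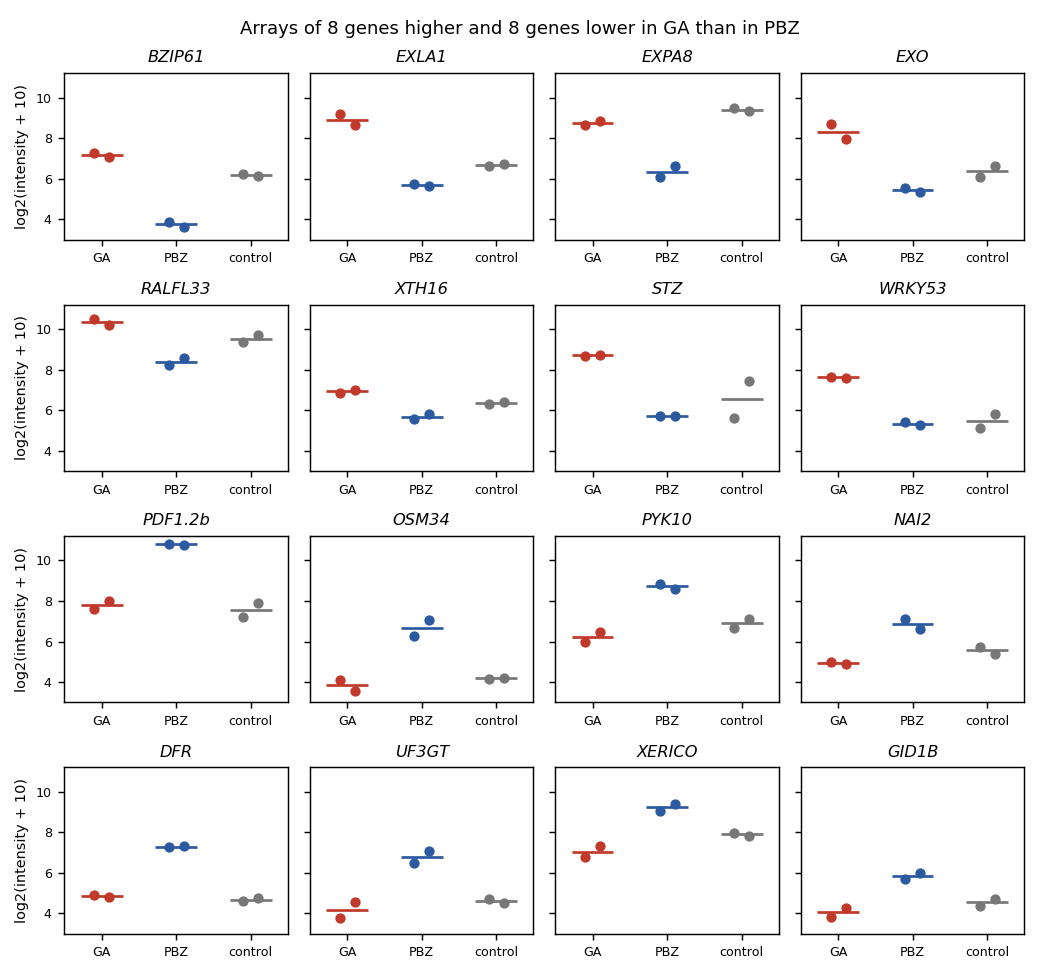
Intensity on each array, log2(intensity + 10), for 8 genes higher (upper rows) and 8 genes lower (lower rows) in GA than in PBZ, with 1 point per array and a line at each group's mean (n = 2). EXPA8 was brighter in the controls than in GA, while the controls lay near GA for DFR and PDF1.2b and near PBZ for WRKY53.

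Of the 4 measured genes known for fast induction by touch or wounding, 3 rose. STZ (AT1G27730), a zinc finger repressor of stress responses also called ZAT10, had 399.7 and 411.5 in GA and 42.8 and 43.0 in PBZ, with 38.8 and 163.7 in the controls. The replicates of each treatment were alike, while the control arrays lay far apart. The log2 fold change was 2.97 (SE 0.54, limma adjusted p = 0.0492), and the call was lost with a robust variance prior and with a replicate block. CML38 (AT1G76650), a calmodulin-like protein, had 133.8 and 90.4 in GA and 14.5 and 14.4 in PBZ, with 7.3 and 16.5 in the controls. Controls and PBZ overlapped, and the log2 fold change was 2.30 (SE 0.26, limma adjusted p = 0.0139). CML37, a related calmodulin-like protein, rose by 1.59 on the log2 scale.

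The median log2 fold change of the 4 touch and wounding genes was 1.94. The exception was AT1G76640, at 0.4 and 0.5 in GA and 5.9 and 1.3 in PBZ, all under the pseudocount. Of 7 measured calmodulin-like genes 3 rose, CML42 being the other, and 0 fell. CML23 had 89.8 and 57.3 in GA and 21.5 and 6.4 in PBZ but did not pass (limma adjusted p = 0.243), and its control arrays of 13.4 and 92.7 covered nearly that whole span. CML41 had 36.7 and 53.0 in GA and 70.0 and 70.0 in PBZ and did not pass. GA plants alone were described as sprayed, and the part of handling in these differences was not tested.

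WRKY53 (AT4G23810), a transcription factor of leaf senescence and defence, had 189.1 and 181.1 in GA and 32.3 and 28.7 in PBZ, with 24.3 and 46.9 in the controls. GA was the group apart, and the log2 fold change of GA minus PBZ was 2.27 (SE 0.24, limma adjusted p = 0.013). Against the controls, GA did not pass for WRKY53 (limma adjusted p = 0.109). WRKY22, a factor of immune signalling, rose by 1.0 on the log2 scale, and the other 4 measured WRKY genes did not pass. PUB23, a ubiquitin ligase that dampens immune signalling, had 73.7 and 49.8 in GA and 13.9 and 14 in PBZ, with 12.6 and 5.7 in the controls. It rose by 1.56 on the log2 scale (limma adjusted p = 0.0299) and was the 1 gene of 9 measured U-box ligases to pass. TET8, a tetraspanin of extracellular vesicles, rose by 1.41.

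BZIP61 (AT3G58120), a basic leucine zipper transcription factor, was bright in GA and dim in PBZ. Its intensities were 142.4 and 123.1 in GA and 4.8 and 2.3 in PBZ, with 65.5 and 61.3 in the controls. The PBZ arrays were under the pseudocount, and the controls lay closer to GA. Its log2 fold change was 3.40 (SE 0.15, limma adjusted p = 0.00343), and it ran from 2.21 with a pseudocount of 32 to 4.93 with a pseudocount of 1. BZIP34, a related factor, had 13.0 and 8.1 in GA and 0.9 and 0.8 in PBZ, just short of the threshold (limma adjusted p = 0.053). BZIP60, a factor of the unfolded protein response, had 445.5 and 477.0 in GA and 264.7 and 246.4 in PBZ, with 239.1 and 266.7 in the controls, and rose by 0.83 on the log2 scale. The other 4 of 7 measured bZIP genes lay between -0.19 and 0.56 and did not pass.

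MSRB6 (AT4G04840), a methionine sulfoxide reductase that repairs oxidised proteins, had 504.1 and 504.8 in GA and 103.5 and 104.0 in PBZ, with 464.8 and 448.3 in the controls. Replicates were nearly identical, and the controls lay close to GA. On the log2 scale the fold change was 2.18 (SE 0.11, limma adjusted p = 0.00343). WSD1, a wax ester synthase, had 29.9 and 30.9 in GA and 2.9 and 1.8 in PBZ, with 22.8 and 21.3 in the controls (log2 fold change 1.71). FATB, a plastid thioesterase that releases saturated fatty acids from acyl carrier protein, rose by 0.86. Of 13 measured glutathione transferases, GSTU27 and GSTU26 rose by 1.61 and 1.35 on the log2 scale, and 10 did not pass. GSTU23 had -0.70 (limma adjusted p = 0.0434), a call lost after quantile normalization (adjusted p = 0.0552) and after median centring (0.0517).

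Of 4 measured genes known to respond to jasmonate, 3 fell, with a median log2 fold change of -2.19. PDF1.2b (AT2G26020), a plant defensin, had 181.9 and 241.3 in GA and 1800.1 and 1707.8 in PBZ, with 136.7 and 226.7 in the controls. PBZ was the group apart, and GA and control arrays overlapped. Its fold change on the log2 scale was -3.01 (SE 0.25, limma adjusted p = 0.00887). Its probe set is of a kind whose probes can bind near-identical copies, so its signal may include that of related defensins. PDF1.2 (AT5G44420), a marker gene of the jasmonate and ethylene response, had 139.2 and 130.8 in GA and 751.2 and 1218.6 in PBZ (log2 fold change -2.74, limma adjusted p = 0.023).

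JRG21, an oxygenase that hydroxylates jasmonate, had 7.2 and 0.9 in GA and 33.3 and 32.3 in PBZ, with 0.5 and 0.5 in the controls (log2 fold change -1.64). THI2.1, a thionin, was the 1 measured gene of 4 on the jasmonate list that did not pass, and its log2 fold change was -0.94. A relative in name went the other way: THI2.2 had 130.5 and 104.5 in GA and 22.5 and 25.8 in PBZ and rose by 1.89 on the log2 scale. OSM34 (AT4G11650), an osmotin-like antifungal protein, had 7.4 and 1.9 in GA and 68.1 and 123.1 in PBZ, with 7.9 and 8.4 in the controls. The controls lay with GA, and the log2 fold change was -2.82 (SE 0.29, limma adjusted p = 0.0126). ChiC, a chitinase, fell by 1.13 on the log2 scale. PDF2.5, another defensin, had 0.6 and 0.7 in GA and 9.1 and 9.9 in PBZ, values that all lay below the pseudocount. The log2 fold change was -0.87, and 0 with a floor of 10.

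Of 20 listed genes of anthocyanin and flavonol synthesis, 5 were measured. All 5 fell, with a median log2 fold change of -2.44 beside -0.0468 over all probe sets. DFR (AT5G42800), the reductase that commits flavonoids to anthocyanin, had 20.0 and 17.8 in GA and 143.7 and 150.8 in PBZ, with 14.5 and 16.7 in the controls. GA and control arrays were both low, and PBZ was high. The log2 fold change was -2.44 (SE 0.12, limma adjusted p = 0.00343). The others add sugars or acyl groups to the pigment. UF3GT, a glycosyltransferase of anthocyanin, had 3.9 and 13.8 in GA and 78.8 and 125.4 in PBZ (log2 fold change -2.59). AT4G14090, the anthocyanin glucosyltransferase UGT75C1, had 15.4 and 9.6 in GA and 113.7 and 147.9 in PBZ (-2.65). Both were low in the controls too, none of which exceeded 16.5. The malonyltransferase AT5MAT and the glucosyltransferase UGT78D2 had log2 fold changes of -1.24 and -1.0. CHIL, a chalcone isomerase-like protein outside the list, had 22.6 and 36.6 in GA and 107.6 and 88.0 in PBZ (log2 fold change -1.46).

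The endoplasmic reticulum body is a compartment of Brassicaceae that stores beta-glucosidase for defence, and 5 of its 6 measured genes fell. PYK10 (AT3G09260), that beta-glucosidase, had 54.0 and 78.8 in GA and 446.5 and 376.5 in PBZ, with 92.6 and 130.2 in the controls. All 3 groups stood apart, with GA lowest, and the log2 fold change was -2.48 (SE 0.23, limma adjusted p = 0.0114). NAI2 (AT3G15950), needed to form the compartment, had 22.2 and 19.2 in GA and 126.3 and 87.3 in PBZ, with 42.9 and 32 in the controls (log2 fold change -1.91, limma adjusted p = 0.0136). NAI1, the transcription factor that drives both, had 4.6 and 0.6 in GA and 21.1 and 19.4 in PBZ (log2 fold change -1.28).

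The jacalin-related lectins that gather around PYK10 were divided. JAL33 had 16.2 and 18.2 in GA and 96.8 and 103.4 in PBZ, a log2 fold change of -2.02, and JAL22 had -1.65. JAL34, outside the list, had -1.43. JAL23 showed no such gap, with 65.8 and 73.9 in GA inside the PBZ values of 56.9 and 89.3. JAL23 was the 1 gene of the 6 on the list that did not pass, and the median log2 fold change of the list was -1.78. Whether root tissue, where these genes are known to be abundant, was carried along was not tested. Of 6 listed root markers 1 was measured, AT4G33420, and its intensities were 11.3 and 14 in GA and 7.7 and 11.6 in PBZ.

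ARPN (AT2G02850), plantacyanin, a small copper protein of the extracellular matrix, had 81.9 and 109.1 in GA and 573.4 and 600.3 in PBZ, with 159.6 and 142.6 in the controls. Its log2 fold change was -2.51 (SE 0.16, limma adjusted p = 0.00535), and GA was also below both control arrays. SWEET1, a glucose transporter, had 93.1 and 90.4 in GA and 226.0 and 230.2 in PBZ (log2 fold change -1.23). Of 47 measured UGT glycosyltransferases 0 rose and 4 fell, and their median was -0.17. The 4 were UGT72E1, which glucosylates lignin precursors, UGT76C2, which glucosylates cytokinins, UGT72B3 and UGT78D2. LHW, a transcription factor of vascular cell number, and CLE41, the source of a peptide that keeps vascular stem cells dividing, both fell, each by 1.12 on the log2 scale, and the call of CLE41 was lost after median centring (limma adjusted p = 0.0519).

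**Figure D3:**
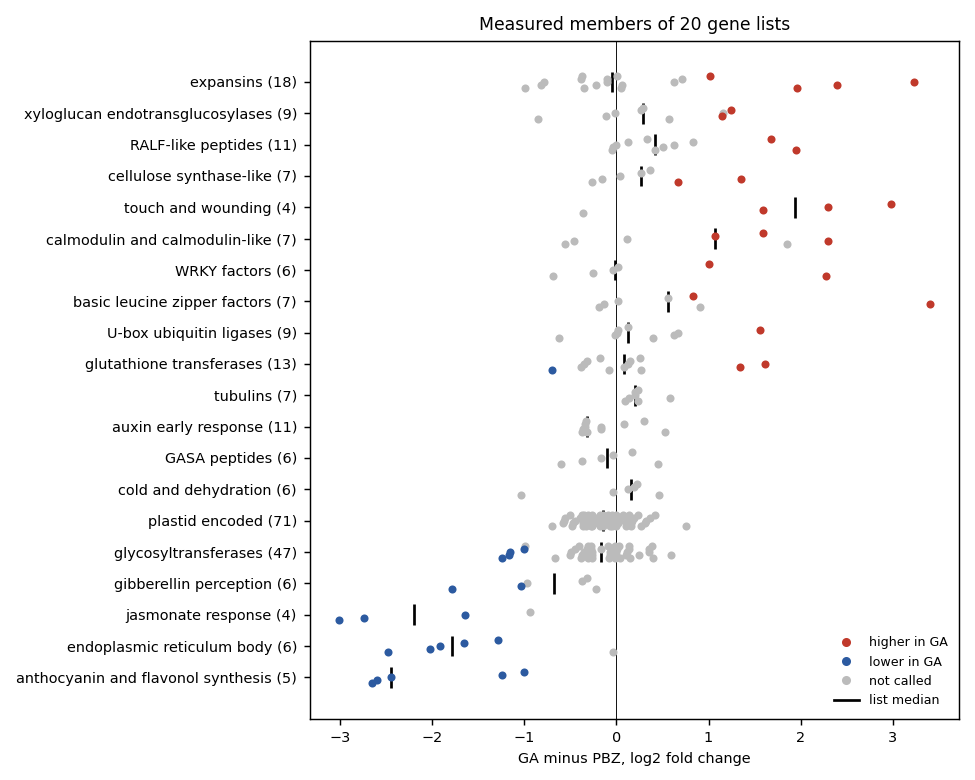
Log2 fold change of GA minus PBZ (horizontal axis) for each measured member of 20 gene lists (rows, with the number of measured members), with a bar at the list median. All 5 anthocyanin genes and 5 of 6 endoplasmic reticulum body genes fell (blue), while 4 of 18 expansins rose (red) and the other 14 were not called (grey).

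Several lists had no call in either direction. Those of early auxin response and cytochromes P450 were drawn up by symbol, which leaves out relatives known by a locus code only. None of 11 measured early auxin response genes passed, with a median log2 fold change of -0.32 (limma; 0 had an unadjusted p under 0.05). The same held for 6 measured of 21 listed flowering genes and 6 of 22 genes of chlorophyll synthesis (limma, 0 with an unadjusted p under 0.05 in each). Of 22 measured cytochromes P450 with a CYP symbol, 0 passed (limma, 6 with an unadjusted p under 0.05). Members of this large family that carry a locus code only were not counted. One of them, AT3G44970, fell and is described below. Of 71 genes on the list of plastid-encoded genes 0 passed (limma, 5 with an unadjusted p under 0.05), and their median was -0.15. That list was drawn up by symbol and includes matR and orfX, which carry no plastid locus code. Among 6 measured of 15 listed genes of cold and dehydration, 0 passed (limma, 1 with an unadjusted p under 0.05). That 1 was LTI30, a dehydrin, with 197.3 and 142.5 in GA and 429.4 and 289.8 in PBZ.

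Most probe sets tested, and so most of the calls, came without a gene symbol of their own in the annotation. Over all probe sets 2.97% passed. Of 1580 probe sets whose gene has a symbol, 74 passed (4.68%), 38 of them higher and 36 lower. Of 11933 probe sets whose gene has a locus code only, 251 passed (2.1%), 175 higher and 76 lower. Of 8730 probe sets with no named gene, 342 passed (3.92%), 227 higher and 115 lower.

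Among genes with a locus code only, AT1G66100 rose the most on the log2(intensity + 10) scale. Its intensities were 1510.6 and 1438.6 in GA and 71.7 and 114.6 in PBZ, with 808.3 and 992.7 in the controls. The groups did not overlap, and the controls lay toward GA. On the log2 scale the fold change was 3.88 (SE 0.23, limma adjusted p = 0.00456), a 14.7-fold difference. AT2G20870 had 298.1 and 233.0 in GA and 11 and 31.7 in PBZ, with 121.9 and 126.3 in the controls (log2 fold change 3.21, limma adjusted p = 0.0119). AT2G30930 had 1185.8 and 859.2 in GA and 132.3 and 196.2 in PBZ, and AT5G03120 had 654.7 and 541.9 in GA and 101.3 and 95.4 in PBZ. In each of these genes the controls lay between the treatments.

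A second kind of locus-code gene had controls near PBZ. AT4G29780 had 184.1 and 123.2 in GA and 15.9 and 15.3 in PBZ, with 15.3 and 33 in the controls (log2 fold change 2.65, limma adjusted p = 0.0139). AT2G27080 had 171.3 and 148.7 in GA and 20.7 and 18.9 in PBZ, with 8.8 and 28.4 in the controls. AT3G01830 had 130.3 and 145.4 in GA and 8.9 and 9.6 in PBZ, with 0.3 and 14 in the controls. The GA arrays alone were bright for these genes, as they were for AT1G77640. AT4G27280 had 745.3 and 667.1 in GA and 93.1 and 64.5 in PBZ, but its control arrays, at 119.1 and 351.9, lay far apart as those of STZ did.

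The reverse held for AT5G12940, which had 124.7 and 137.1 in GA and 10.3 and 11.6 in PBZ, with 138.6 and 124.8 in the controls. GA and control arrays overlapped there, and PBZ alone was dim. Its fold change on the log2 scale was 2.75 (SE 0.13, limma adjusted p = 0.00343).

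AT3G44970 fell the most of the genes with a locus code only on the log2(intensity + 10) scale, and its GA arrays were about the pseudocount. Its intensities were 8.0 and 14.2 in GA and 344.8 and 283.0 in PBZ, with 26.5 and 22.8 in the controls. GA and control arrays were both dim and did not overlap, and the log2 fold change was -3.95 (SE 0.19, limma adjusted p = 0.00343). AT4G16260 had 22.4 and 12.9 in GA and 273.0 and 288.7 in PBZ, with 13.5 and 41.8 in the controls (log2 fold change -3.42, limma adjusted p = 0.0139). AT3G16530 had 239.6 and 267.3 in GA and 979.5 and 983.6 in PBZ, with 256.0 and 438.7 in the controls. For both, PBZ was bright and the GA and control arrays overlapped. The other 7 of the 10 deepest falls of this kind, AT4G14090 among them, had log2 fold changes from -2.65 to -1.82.

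Further locus codes gain a name from RefSeq synonyms and were picked with their values in view. AT1G68570 is NPF3.1, a transporter known to carry gibberellin, and it had 108.1 and 106.4 in GA and 222.7 and 244.2 in PBZ, with 127.7 and 107.9 in the controls. PBZ was the group apart, and the log2 fold change was -1.05 (SE 0.14, limma adjusted p = 0.02). AT3G13610 is F6'H1, the hydroxylase that leads to the coumarin scopoletin, and it had 1.7 and 0.9 in GA and 33.6 and 18.6 in PBZ (log2 fold change -1.64). AT5G52050 is DTX50, a transporter known to export abscisic acid, and it had 50.8 and 18.8 in GA and 1.2 and 1.6 in PBZ (log2 fold change 1.88, limma adjusted p = 0.0454). Its GA arrays lay far apart.

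**Figure D4:**
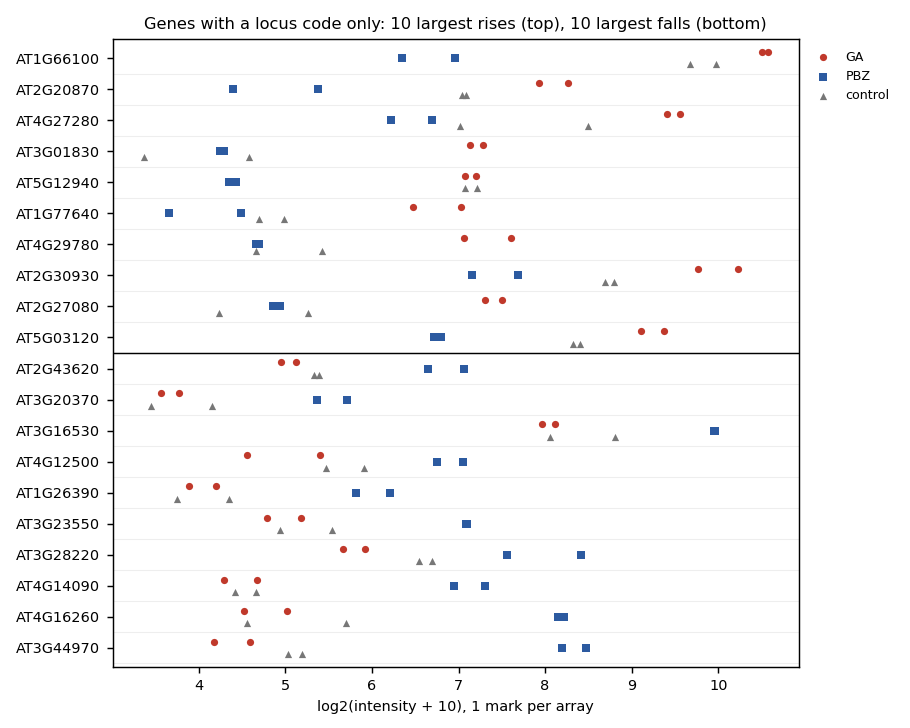
Intensity on each array, log2(intensity + 10) (horizontal axis), for the 10 largest rises (upper rows) and 10 largest falls (lower rows) among genes with a locus code only, with 1 mark per array in GA (red circles), PBZ (blue squares) and controls (grey triangles). AT5G12940 was as bright in the controls as in GA, while AT4G29780 and AT2G27080 were bright in GA alone.

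Unnamed probe sets also held wide differences. The highest rise of all on the log2(intensity + 10) scale had 885.6 and 547.1 in GA and 23.3 and 18.2 in PBZ, with 35.5 and 122.4 in the controls (log2 fold change 4.53, limma adjusted p = 0.0139). The deepest unnamed fall on this scale had 15.3 and 13.8 in GA and 363.1 and 332.4 in PBZ, with 37.4 and 21.6 in the controls (log2 fold change -3.86, limma adjusted p = 0.00343).

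Of 5818 pairs of measured genes that are adjacent in the RefSeq gene table, both passed in 12 (0.206%). Of the single genes placed 2.58% passed, which is not a background for pairs, since both members must pass. Whether adjacent genes passed together more often than other pairs was not tested. In 10 of the 12 pairs both genes moved the same way, where 445 of all 675 calls were rises. AT5G52760 and AT5G52750 rose side by side, with 311.4 and 295.3 in GA and 69.6 and 50.3 in PBZ for the first, and 405.4 and 362.0 in GA and 114.3 and 104.1 in PBZ for its neighbour. JAL33 and JAL34 fell side by side. The exceptions were AT1G30690 with AT1G30700 and AT1G31690 with AT1G31710, where the first rose and its neighbour fell. AT1G31690 had 288.8 and 286.0 in GA and 107.1 and 91.8 in PBZ, and AT1G31710 had 83.7 and 94.7 in GA and 160.1 and 144.3 in PBZ. Both probe sets of AT1G31690 rose, while 1 of 2 for AT1G31710 fell and the other did not pass. The call of AT1G31710 was lost after median centring (limma adjusted p = 0.0542), and that of AT1G30690 after quantile normalization (0.0512). The genes of these pairs were picked with their values in view.

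The place of the controls shows which treatment stood apart from untreated rosettes. It was measured for each called probe set as the distance of the control mean from the PBZ mean, as a share of the distance to the GA mean, so that 0 is PBZ and 1 is GA. Among the 445 rises the median place was 0.546, with 218 between 0.5 and 1, 164 between 0 and 0.5, 34 below 0 and 29 above 1. Among the 230 falls it was 0.759, with 159 between 0.5 and 1, 39 between 0 and 0.5, 3 below 0 and 29 above 1. The difference between these medians was not tested. WRKY53 had a place of 0.06 and EXLA1 one of 0.31, while PYK10 lay at 0.73, MSRB6 at 0.94 and DFR at 1.07. The place is a description and not a test against the controls. GA minus control did not pass for WRKY53 or EXLA1 (limma adjusted p = 0.109 for each), while PBZ minus control passed for MSRB6 (0.00909).

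**Figure D5:**
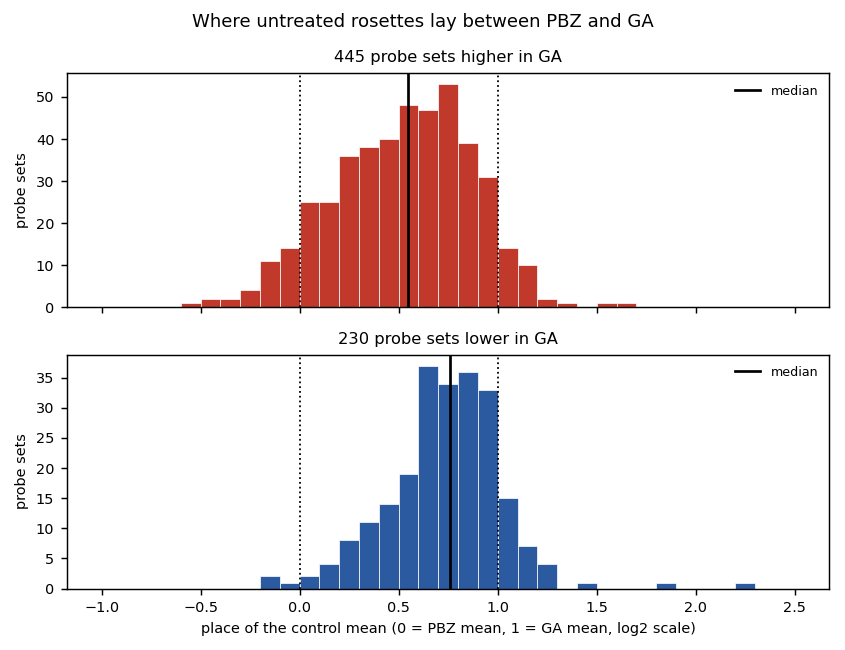
Number of called probe sets (vertical axis) by the place of the control mean on the log2 scale between the PBZ mean (0) and the GA mean (1), for 445 rises (upper panel) and 230 falls (lower panel), with a line at the median. The median was 0.546 for rises and 0.759 for falls.

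A contrast of the mean of GA and PBZ against the controls asked which genes differed from untreated rosettes on average over both treatments. No probe set passed (0%, limma with Benjamini-Hochberg adjustment, smallest adjusted p = 0.112), and 2008 had an unadjusted p under 0.05 (8.83%). Among the rises, 90 had a mean of both treatments above the controls at an unadjusted p under 0.05 and 111 had one below. Among the falls, 101 lay above the controls and 9 below. Over all 22746 probe sets, 1093 lay above and 915 below at that threshold. The rises and falls were picked by a small p from the same fit. Both contrasts use the same estimate of spread, so small p-values are more frequent among them by selection, and no conclusion is drawn from these counts. Only named genes already called in GA against PBZ were ranked by this contrast. Among them, the smallest p-values below the controls were those of AT5G12940, EXPA8, AT4G18970, MSRB6 and AT3G07010. Above the controls they were those of DFR, CHI, AT5G39520, PDF1.2b and AT3G44970.

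CHI (AT2G43570), a chitinase family gene and not the chalcone isomerase, had 115.6 and 127.9 in GA and 225.4 and 343.5 in PBZ, with 39.9 and 40.5 in the controls. Both treatments were above the controls, with PBZ above GA (log2 fold change of GA minus PBZ -1.13, limma adjusted p = 0.0499, and 0.0525 after quantile normalization). AT5G39520 showed the same order, with 56.4 and 71.1 in GA and 125.0 and 148.5 in PBZ, against 26.6 and 34.8 in the controls. AT4G18970 had 327.8 and 386.4 in GA and 60.6 and 73.9 in PBZ, with 334.8 and 328.2 in the controls, and AT3G07010 likewise had GA and control arrays that overlapped far above PBZ. CHI was also among the last probe sets inside the threshold, with AT1G19960 and AT4G23960 at the same adjusted p of 0.0499, and AT2G14160 was the first outside it at 0.0502.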

How the data were processed

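Rosette RNA was measured on 6 Affymetrix-type arrays, 2 per group, grouped by sample title. The deposited table holds linear intensities with 1 value per probe set and array. The submitters' processing notes name RMA and affy, yet RMA gives log2 values, and how these intensities were made is not given in the sources used. Every array had the same 2% trimmed mean of 100.01. Of 22810 probe sets, 64 controls were left out. By the platform annotation 13513 name 1 gene, 503 several, and 8730 are unnamed here; 13436 matched RefSeq by Entrez number, 1580 have a symbol and 11933 a locus code only. No coordinates are given, since the array's build is not named.

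Intensities were taken as log2(intensity + 10) without further normalization. R 4.3.3 and limma 3.58.1 fitted a mean per group to all 6 arrays (3 residual and 3.07 prior degrees of freedom, two-sided), adjusted over 22746 probe sets at 0.05. The fit was tested on simulated data. It called 37% of 100 changes of 1 on the log2 scale and 80% of 100 changes of 2, with 2 false calls. A gene that did not pass may therefore still have changed. The number of arrays limits the precision.

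Members and gene lists were chosen with earlier results of these data known. Named genes passed with groups that do not overlap: the 15 largest rises and falls of genes with a symbol and the 10 largest with a locus code only, 1 probe set per gene. The rule adds up to 6 members per list by p, all gibberellin list members, and the 5 smallest p each way for the mean of both treatments against control. Other named genes were chosen after their values were seen. Lists are described by counts and medians. Alternatives were other scalings, pseudocounts, filters, variance priors, a replicate block, a fit without controls, a minimum fold and leaving out each array. The labels do not say whether the replicate numbers pair the samples, and the main fit did not pair them.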

Additional observations from a re-analysis of the deposited data

How the results depend on the processing

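The count of 675 for GA against PBZ was 685 after quantile normalization, 757 after median centring, 992 with a pseudocount of 32, 692 without probe set types that can cross-hybridise and 607 with a robust prior. It moved to 94 with a pseudocount of 1 (53 higher, 41 lower), to 292 with a floor of 10 (54.1% higher, against 65.9%), to 1349 without the 40% dimmest probe sets, to 1040 with an intensity trend in the prior and to 130 with a minimum log2 fold change of 0.5. A fit of the GA and PBZ arrays alone called 284, with 268 shared, and leaving out a control array gives the same 284 by construction. Leaving out single arrays gave 0 to 284 calls; a lone array was assumed to vary like the others. The replicate block called 391. Over all probe sets, deviations of same-numbered arrays correlated at -0.000766, 0.0313 and 0.0147. Correlations over all probe sets cannot show whether same-numbered arrays shared a batch that touched part of the genes. For the mean of both treatments against control, the count of 0 became 1 with a pseudocount of 32, 19 with the floor, 73 without dim probe sets, 7 with the trend and 1 with the replicate block. JAL23, which did not pass, had -0.03, turned to 0.0103 by median centring, and ran from -0.316 without PBZ replicate 1 to 0.0418 without GA replicate 1 and 0.253 without PBZ replicate 2. Apart from the smaller or larger sets of arrays and probe sets tested, the cause was not tested. Median centring raised the share of higher calls to 72.5% and moved the median of all probe sets to -0.00503. Signals near the pseudocount limit what dim genes can show.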
